A study of Mus musculus with 44 samples.

Results

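The 9 genes described here, Ank3, Tenm4, Trank1, Ncan, Syne1, Adcy2, Shank2, Lman2l and Fads2, are mouse counterparts of genes named in human genetic association studies of bipolar disorder. They were taken by name, 9 of 21900 protein-coding genes with mm10 coordinates and 9 of the 53715 genes of the RNA table. In the chromatin tables a gene's value is the sum of counts over all peaks that overlap its span extended by 5 kb on each side. Under that rule all 9 had open-chromatin peaks and H3K27ac peaks in the paraventricular thalamic nucleus (PVT), and 8 of 9 had H3K27ac peaks in all 4 brain regions, Lman2l having none in cortex. The members held 385 H3K27ac peaks in PVT, 393 in cortex (COR), 297 in caudate putamen (CP), 316 in nucleus accumbens (NAC), and 167 ATAC peaks in PVT.

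The study compared wild-type (WT) mice with mice carrying Polg(D181A), a proofreading-deficient form of the mitochondrial DNA polymerase that is used as a model of bipolar disorder. Its 44 samples comprised 20 PVT RNA libraries, 16 H3K27ac libraries, 4 PVT ATAC libraries and 4 input libraries of both genotypes together, which were left aside. RNA came in 5 groups of 4 from adult C57BL/6 mice: euthymic COX-positive WT, and 4 Polg(D181A) groups that combine a state, euthymic or depressive, with a positive or negative COX class, where COX is the staining class for cytochrome c oxidase. H3K27ac came in groups of 2 adult C57BL/6 libraries, WT and Polg(D181A), from PVT, COR, CP and NAC, and ATAC in 2 WT and 2 Polg(D181A) libraries of adult PVT whose strain labels read C57BL/7, C57BL/8, C57BL/9 and C57BL/10. No state or COX class is given for the chromatin samples, there is no COX-negative or depressive WT group, and in the published line the mutant enzyme is a transgene driven by a neuronal promoter in mice that keep their own Polg genes. Whether replicates are separate animals is not stated in the labels, so p-values here measure only the spread between these samples, which may be technical.

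H3K27ac is a histone mark laid down at active promoters and enhancers, and ATAC-seq reads open chromatin. Long neuronal genes often carry the mark over many intragenic sites, and which of these sites are marked differs between neuron types. The 9 genes act in separate parts of the neuron: Ank3 and Syne1 in its membrane and nuclear skeleton, Shank2 in the postsynaptic density, Adcy2 in cyclic AMP signalling, Tenm4 and Ncan at or outside the cell surface, and Lman2l, Fads2 and Trank1 in other roles.

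RefSeq promoter windows of GRCm38.p6 (mm10), from 250 bases before to 50 after a start, were found for 7 of the 9 members, and Ank3 and Shank2 had no entry. The 4 printed below, chosen after their peaks were seen, are windows of members called between regions that lay under a peak in some regions and not in others. Windows of Syne1, which was also called, are not printed, though some of them would fit this description. Each is read 5′ to 3′ on the gene's strand, in lower case, with capitals where a TATA box (TATAAA) was matched on either strand, or a box of CCAAT, or the cyclic AMP element called CRE (TGACGTCA), or a GC-rich box, GGGCGG.
Adcy2 (chr13:68999492-68999791, minus strand): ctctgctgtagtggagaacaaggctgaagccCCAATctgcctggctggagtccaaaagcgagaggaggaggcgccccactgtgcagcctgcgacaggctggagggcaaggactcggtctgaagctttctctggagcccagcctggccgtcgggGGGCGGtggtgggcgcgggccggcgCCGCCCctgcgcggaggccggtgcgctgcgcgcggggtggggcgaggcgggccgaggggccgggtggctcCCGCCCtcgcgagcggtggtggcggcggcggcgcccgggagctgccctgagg
Fads2 (chr19:10101454-10101753, minus strand): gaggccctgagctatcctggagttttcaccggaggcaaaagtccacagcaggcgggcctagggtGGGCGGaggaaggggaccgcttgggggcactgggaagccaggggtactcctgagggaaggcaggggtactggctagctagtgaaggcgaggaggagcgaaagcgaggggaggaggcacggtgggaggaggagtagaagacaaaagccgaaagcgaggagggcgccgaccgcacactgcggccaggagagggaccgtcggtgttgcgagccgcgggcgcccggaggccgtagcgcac
Trank1 (chr9:111311489-111311788, plus strand): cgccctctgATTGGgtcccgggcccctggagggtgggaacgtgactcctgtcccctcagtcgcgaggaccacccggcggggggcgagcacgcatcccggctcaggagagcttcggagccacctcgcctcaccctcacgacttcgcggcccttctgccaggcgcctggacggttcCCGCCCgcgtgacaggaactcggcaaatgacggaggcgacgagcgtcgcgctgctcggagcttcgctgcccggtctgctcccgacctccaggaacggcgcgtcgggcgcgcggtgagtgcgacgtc
Ncan (chr8:70120795-70121094, minus strand): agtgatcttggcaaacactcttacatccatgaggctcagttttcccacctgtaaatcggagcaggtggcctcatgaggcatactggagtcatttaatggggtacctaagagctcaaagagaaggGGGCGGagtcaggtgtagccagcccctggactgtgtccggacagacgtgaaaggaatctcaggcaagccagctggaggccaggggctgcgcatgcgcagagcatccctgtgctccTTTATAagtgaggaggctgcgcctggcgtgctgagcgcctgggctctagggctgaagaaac

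The GC-rich box stood in 35.7% of all 32851 windows of this length, the CCAAT box in 37.4%, the TATA box in 13.6% and the CRE in 1.79%, and none of the members' windows held a CRE. An E-box (CANNTG), left uncapitalised, stood in 72.3%. A match is a description of the sequence only. The Adcy2 window lay under an H3K27ac peak in COR, CP and NAC and under an ATAC peak in PVT, but not under an H3K27ac peak in PVT, where the nearest peak was 578 bp away. The Fads2 window lay under an H3K27ac peak in PVT alone, and the nearest peaks were 592 bp away in COR, 3717 bp in CP and 11528 bp in NAC. The Trank1 window was under a peak in PVT and NAC, and the Ncan window was under a peak in NAC, with peaks ending 78 bp from it in COR and 59 bp in CP. Over all windows, 35.1% lay under an H3K27ac peak in PVT, 32.4% in COR, 19.0% in CP and 31.9% in NAC.

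Library totals over peaks ran from 6415127 to 197650530 for H3K27ac and from 2932270 to 8040451 for ATAC, and RNA totals from 26719334 to 115285349. WT library 2 of CP had no read in 80.84% of its peaks and WT library 2 of NAC in 69.64%, against 7.095% to 52.51% elsewhere in H3K27ac. Nuclei were stained for NeuN, a neuronal nuclear protein, and sorted before both chromatin assays. In H3K27ac, region markers matched the labels. There 5 thalamic markers summed to 1732 CPM (counts scaled to library size) in PVT and to 43.1 to 82.2 elsewhere. The 5 cortical projection markers summed to 1081 CPM in COR and 18.5 to 208 elsewhere. For 5 striatal markers the sums were 960 CPM in CP and 647 in NAC against 120 to 170. In the PVT RNA, cortical projection markers had higher median sums than thalamic ones in COX-negative samples. These were 293 against 132 CPM in euthymic and 119 against 82.8 CPM in depressive mice. In the COX-positive groups thalamic medians were higher, 101 to 135 CPM against 29.3 to 57.7. Of 5 oligodendrocyte markers, 3 to 4 had H3K27ac peaks in each region, summing to 407 to 662 CPM, while Mag had none in any region. Their part in the results was not tested. In such bulk samples, fewer marked cells and less mark per cell cannot be told apart.

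Adcy2, which makes cyclic AMP from ATP downstream of G proteins, varied widely in summed mark. The root mean square deviation of its 8 region and genotype means was the largest of the 8 members in the region model. It was 2.05 on the log2 scale, against 0.20 for Ank3 and 1.94 for Fads2. Libraries at 0 enter the means of Adcy2 in CP and of Fads2 in CP and NAC, so the order of these genes is not settled. The largest single changes in the model were those of Fads2, described below. The Adcy2 span is chr13:68620043-68999600, minus strand, 380 kb long. In PVT, 10 small peaks covered 4.281 kb of it, against 62 peaks and 59.878 kb in COR, 17 peaks and 8.732 kb in CP, and 25 peaks and 18.895 kb in NAC. In PVT the summed H3K27ac was 17.7 and 17.7 CPM in WT and 41.0 and 42.6 CPM in Polg libraries. In COR it was 561, 499, 624 and 518 CPM in the same order. All COR libraries therefore lay far above all PVT libraries, with means of 551 ± 55.3 and 29.8 ± 13.9 (SD, n = 4).

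Between these groups stood NAC, with 94.2, 145, 186 and 157 CPM, and CP, with 84.2, 0, 256 and 252 CPM, where the 0 belongs to WT library 2 of CP. With these 4 tables in 1 edgeR quasi-likelihood model, fitted over the 12036 genes with a peak in every region, Adcy2 was lower in PVT than in COR (log2 −4.34 ± 1.09 SE, adjusted p = 0.02). Neighbours in the order did not pass: COR over CP was 2.41 ± 1.0 (adjusted p = 0.133), CP against NAC −0.47 ± 0.95 (0.865) and PVT against NAC −2.40 ± 1.0 (0.145). Without WT library 2 of CP, Adcy2 passed as lower in PVT than in CP (log2 −2.39, adjusted p = 1.26e-05) and as higher in COR than in CP (1.92, 0.000268). Without WT library 1 of CP, which leaves the library at 0 as the only WT value, the model read Adcy2 as higher in PVT than in CP (5.13, 5.88e-05).

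The call of PVT against COR was lost without COR Polg library 1 (adjusted p = 0.0538), PVT Polg library 1 (0.106), PVT Polg library 2 (0.101), PVT WT library 1 (0.1005) or PVT WT library 2 (0.102), at log2 changes that stayed between −4.35 and −4.27. Per kb of covered peak, the regions were near each other, 6.95 CPM per kb in PVT and 9.20 in COR (log2 −0.53 in the fit, adjusted p = 0.9999), so the difference in sums went with 4.281 against 59.878 kb of called peak. Over all alternatives the adjusted p ran from 0.000835 to 0.9999. Each table has its own merged peak set, so a sum moves with how much was called.

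The COR peaks were concentrated in the part of Adcy2 nearer its start: in 4 equal stretches of the span, read from the start, they covered 16.4, 31.3, 9.68 and 2.56 kb. The highest COR peak, chr13:68813184-68817651, lay 184 kb inside the gene, at a mean of 39.7 CPM. The highest PVT peak, chr13:68625317-68626526, was near the far end, 374 kb from the start. It sat beside the highest Adcy2 ATAC peak, chr13:68626756-68627194. Which of these sites are exonic or intronic was not analysed here.

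**Figure D1:**
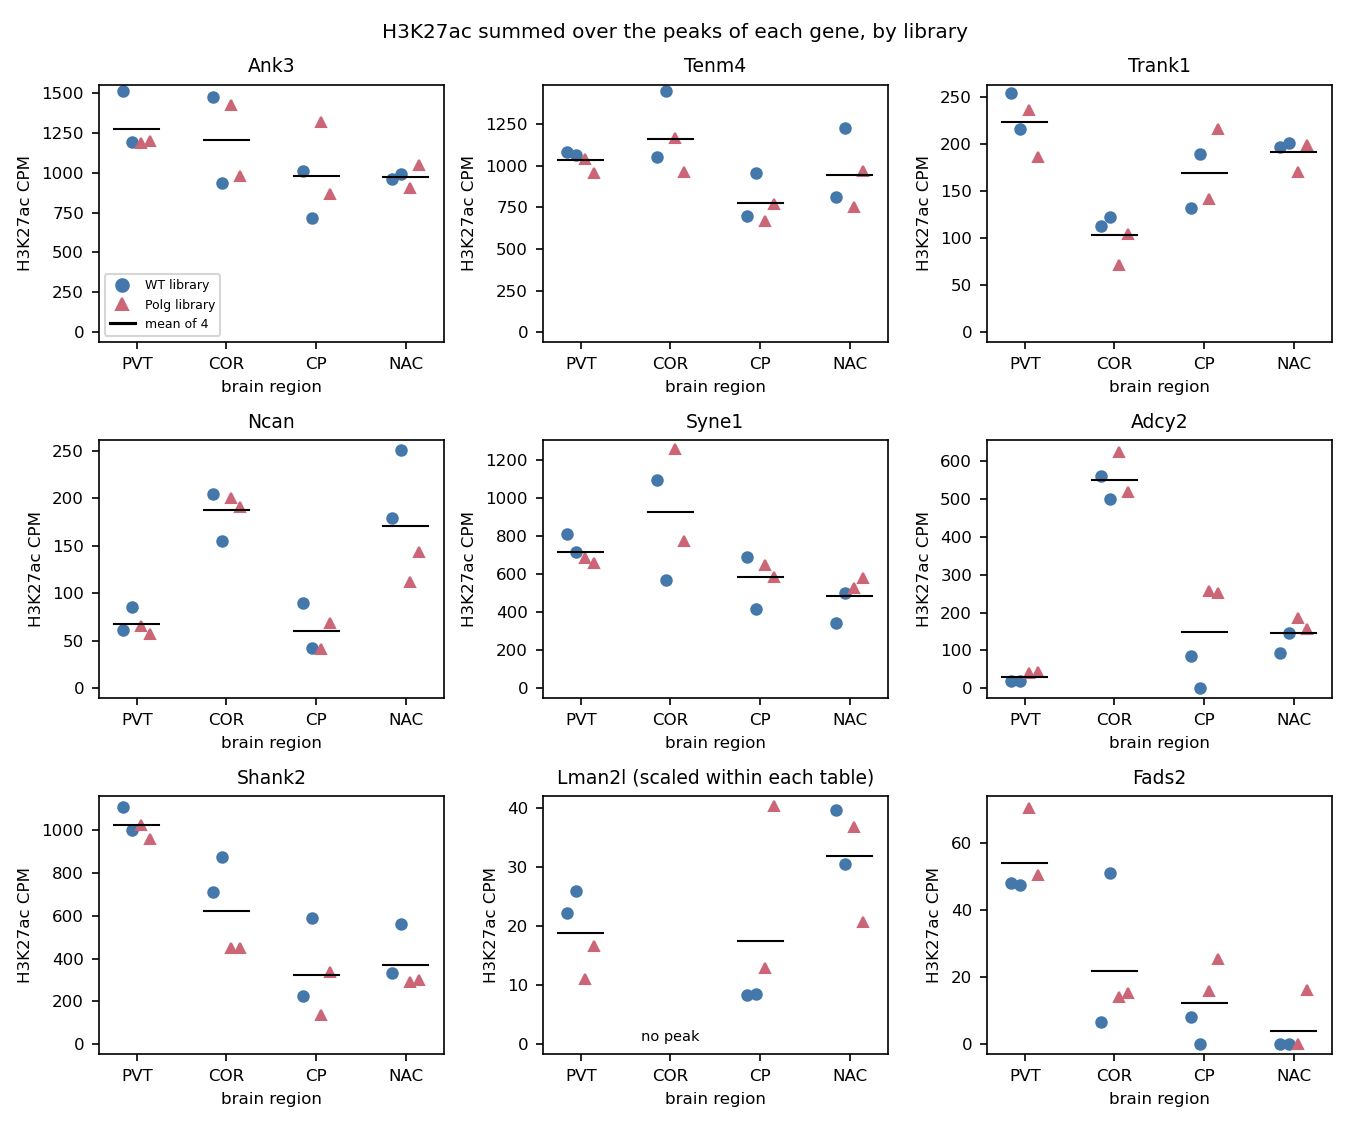
H3K27ac CPM summed over each gene's peaks (y axis, from 0, a scale of its own per gene) in PVT, COR, CP and NAC (x axis), with WT libraries as circles, Polg libraries as triangles and the mean of 4 as a line. Adcy2 lies at 17.7 to 42.6 CPM in PVT and at 499 to 624 CPM in COR; the Lman2l panel is scaled within each table and has no COR value.

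Shank2, a scaffold that links glutamate receptors to the postsynaptic skeleton, was marked over more of its length in PVT than in the other regions. Its span is chr7:143978077-144426043, 448 kb. In PVT, 74 peaks covered 129.131 kb, which is 28.2% of the extended span. The median was 4.44% over the 581 genes with a PVT peak whose extended span exceeds 300 kb. In COR 52 peaks covered 73.86 kb, in NAC 36 covered 37.088 kb and in CP 28 covered 15.359 kb. PVT libraries held 1110, 1003, 1026 and 958 CPM, COR libraries 714, 874, 449 and 452, NAC libraries 332, 563, 290 and 300, and CP libraries 226, 592, 138 and 338. Every PVT library was above every library of the other regions.

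In the 16-library model Shank2 was higher in PVT than in CP by 1.71 ± 0.33 (log2 ± SE, adjusted p = 0.0028) and than in NAC by 1.5 ± 0.33 (adjusted p = 0.00849), while its excess over COR, 0.78 ± 0.32, did not pass (adjusted p = 0.161). No library, left out alone, ended either call. Both directions turned when counts were divided by covered peak length: Shank2 then read −1.36 for PVT against CP (adjusted p = 0.0236), where the median of all genes was itself −0.77, and −0.30 for PVT against NAC (0.9999), median −0.16. Relative to those medians the values were 1.29 and 1.38 in sums and −0.59 and −0.14 per covered kb. Over peaks shared by all 4 regions alone the changes were 0.25 (adjusted p = 0.762) and 1.12 (0.0747). Over the alternatives adjusted p ran from 1.73e-06 to 0.762 against CP and from 3.33e-05 to 0.9999 against NAC.

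The PVT mark on Shank2 grew along the span: its 4 equal stretches, from the end with lower coordinates, held 13.6, 21.2, 38.3 and 56.1 kb of peak. The highest PVT peak, chr7:144322356-144330341, was 7.986 kb wide and lay 348 kb in. In COR, NAC and the ATAC table of PVT the highest peak lay instead about 440 kb in, at chr7:144414017-144422028, chr7:144416139-144419315 and chr7:144417629-144417967, and these 3 overlap one another. Of the 34 ATAC peaks of Shank2, 70.6% overlapped a PVT H3K27ac peak. For Adcy2 this was 11.1% of 9.

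**Figure D2:**
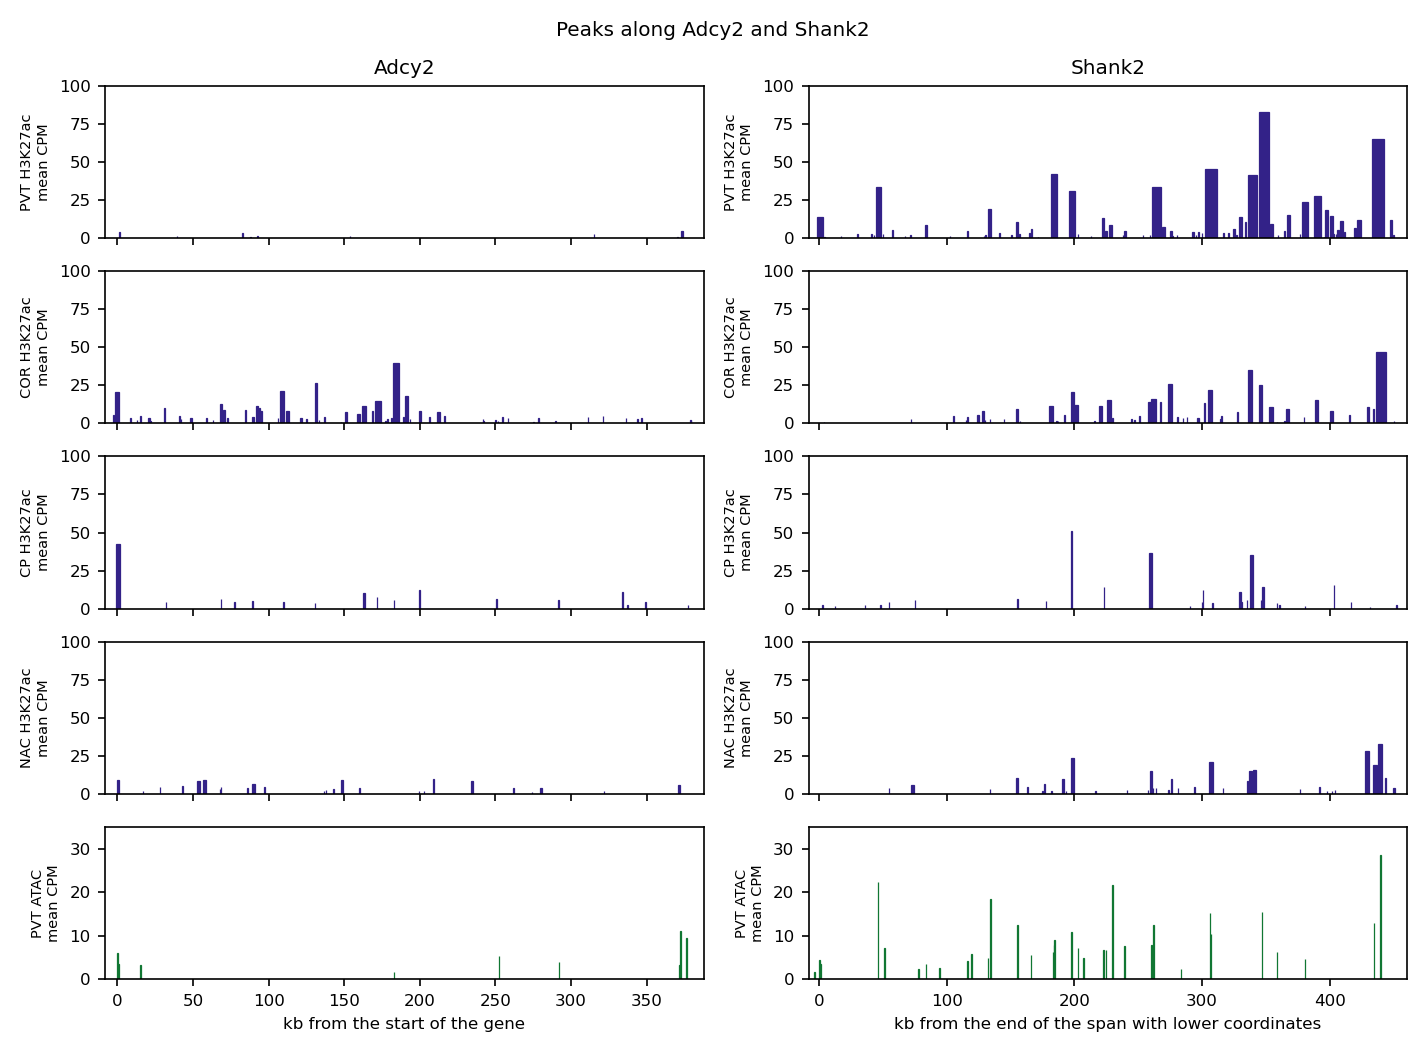
Mean CPM of each peak (y axis, 0 to 100 for H3K27ac and 0 to 35 for ATAC, scaled within each table) against distance in kb along Adcy2, from its start, and along Shank2, from the end with lower coordinates; bar widths are peak widths. Adcy2 has 10 low peaks in PVT and 62 peaks in COR, and Shank2 has 74 peaks in PVT.

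Ncan, a chondroitin sulfate proteoglycan of the brain's extracellular matrix, carried more summed mark in COR and NAC than in PVT and CP. Its span is chr8:70093085-70120863, 27.8 kb, minus strand, and Hapln4 lies within its extended span. COR libraries held 205, 155, 201 and 191 CPM over 20.415 kb of peak, and NAC libraries 179, 251, 111 and 144 CPM over 14.598 kb. PVT libraries held 61.6, 85.8, 65.6 and 57.0 CPM over 7.854 kb, and CP libraries 89.8, 42.5, 41.0 and 68.8 CPM over 3.859 kb. All COR and NAC libraries were above all PVT and CP libraries. Ncan was lower in PVT than in COR (log2 −1.48 ± 0.34 SE, adjusted p = 0.0117) and than in NAC (−1.30 ± 0.34, 0.0208), higher in COR than in CP (1.64 ± 0.34, 0.00733), and lower in CP than in NAC (−1.46 ± 0.34, 0.0288). The neighbours COR and NAC (0.18 ± 0.33, adjusted p = 0.851) and PVT and CP (0.16 ± 0.33, 0.797) did not pass.

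Of these 4 calls, all except COR against CP were lost when 1 or another library was left out. That of PVT against COR was lost without PVT Polg library 2 (adjusted p = 0.0600) or PVT WT library 1 (0.0690), in a range over alternatives of 0.000313 to 0.9999. That of PVT against NAC was lost without NAC Polg library 2 (0.0740), NAC WT library 2 (0.0661), PVT Polg library 1 (0.0701), PVT Polg library 2 (0.0876), PVT WT library 1 (0.0989) or PVT WT library 2 (0.0529), in a range of 0.00343 to 0.9999. That of CP against NAC was lost without CP Polg library 1 (0.0865), NAC Polg library 1 (0.0577), NAC Polg library 2 (0.0839) or NAC WT library 2 (0.0838), in a range of 0.000159 to 0.471. No library ended that of COR against CP. With no extension of the span all 4 Ncan calls were lost (adjusted p of 0.388, 0.475, 0.220 and 0.396 for PVT against COR, PVT against NAC, COR against CP and CP against NAC), and over peaks shared by the 4 regions all 4 were lost as well (0.219, 0.285, 0.110 and 0.218). The log2 changes kept their direction and were larger, in the same order −1.66, −1.34, 2.04 and −1.71 with no extension, and −2.90, −2.50, 3.37 and −2.97 over shared peaks. Per covered kb, Ncan changed sign for COR against CP (log2 −0.76, adjusted p = 0.163) and for CP against NAC (0.46, 0.471), and measured 8.60 CPM per kb in PVT, 9.21 in COR, 15.7 in CP and 11.7 in NAC.

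The COR peak with the highest level on Ncan, chr8:70114179-70120717, was 6.539 kb wide at 46.5 ± 7.16 CPM (SD, n = 4) and ended 78 bp short of the promoter window printed above. In NAC the highest peak, chr8:70116588-70121889, covered that window at 52.0 ± 17.3 CPM. In PVT the highest peak lay 21.1 kb inside the gene. Astrocytes also make neurocan. Of 5 astrocyte markers 3 had peaks in PVT and CP and 4 in COR and NAC, and libraries held summed levels of 121 to 144 CPM in PVT, 79.7 to 137 in COR, 68.8 to 129 in CP and 75.6 to 109 in NAC. Aqp4 lacked a peak in PVT, COR and CP. The part of astrocytes in these differences was not tested.

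Trank1, a large tetratricopeptide and ankyrin repeat protein whose function is little known, was higher in PVT than in COR. Its span is chr9:111311283-111395775, 84.5 kb, plus strand. PVT libraries held 254, 216, 236 and 187 CPM over 25.899 kb of peak and COR libraries 113, 123, 71.9 and 104 CPM over 12.119 kb, with no overlap between them. CP libraries held 132, 189, 141 and 216 CPM and NAC libraries 197, 202, 170 and 199. The change of PVT against COR was 1.13 ± 0.26 (log2 ± SE, adjusted p = 0.0117), and it was lost without COR Polg library 1 (0.0582), PVT Polg library 1 (0.0611) or PVT WT library 1 (0.0556), with no extension of the span (0.0505) and per covered kb (0.03, 0.9999), in a range of 0.00031 to 0.9999. COR against NAC, −0.91 ± 0.26, missed the threshold (adjusted p = 0.0502), as did COR against CP (−0.73 ± 0.26, 0.0744). The highest PVT peak, chr9:111396632-111403427, lay wholly beyond the far end of the span, overlapping its extension and running past it.

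Fads2, a desaturase of long-chain fatty acids, was marked in PVT over 3 peaks and 7.508 kb, with 48.0, 47.7, 70.4 and 50.6 CPM. Its span is chr19:10062765-10101503, 38.7 kb, minus strand, and Fads3 lies within its extended span. In NAC its single peak, 0.671 kb wide, overlapped none of the 3 PVT peaks. It had no read in 3 of 4 libraries, where 3 counts would be 0.0478 to 0.524 CPM, and 16.3 CPM in Polg library 2. The sites marked in PVT were not counted in NAC, so the zeros set no limit on the NAC mark over the gene and no fold is given. The model called PVT against NAC (adjusted p = 0.0418), a comparison of sums over different sites. The call was lost without NAC Polg library 1 (0.0769), NAC WT library 1 (0.1405), NAC WT library 2 (0.115), PVT Polg library 1 (0.0960), PVT Polg library 2 (0.0828), PVT WT library 1 (0.0859) or PVT WT library 2 (0.0873). Over all alternatives the adjusted p ran from 9.86e-18 to 0.9999. COR libraries ranged from 6.75 to 51.2 CPM and CP libraries from 0 to 25.4, and neither differed from PVT by the test (adjusted p = 0.729 and 0.340). The PVT peak over the promoter window printed above, chr19:10099226-10102683, was 3.458 kb wide at 19.5 ± 4.21 CPM (SD, n = 4). The main ATAC peak, chr19:10101760-10102105, began 7 bp from that window.

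Syne1 encodes nesprin-1, which ties the nuclear envelope to the cytoskeleton. Its span is chr10:5020192-5550692, 530 kb, minus strand. It was marked in all regions, at 811, 713, 681 and 658 CPM in PVT, 1094, 568, 1254 and 772 in COR, 690, 414, 648 and 584 in CP, and 340, 498, 528 and 577 in NAC. COR was above NAC in all but the pair of COR WT library 2 and NAC Polg library 2, and the change was 0.93 ± 0.25 (log2 ± SE, adjusted p = 0.0445). It was lost without COR Polg library 1 (0.178), COR WT library 1 (0.146), NAC Polg library 1 (0.129), NAC Polg library 2 (0.114), NAC WT library 1 (0.101) or NAC WT library 2 (0.0685), and was 0.07 per covered kb (0.9999), in a range of 0.000655 to 0.9999. The widest COR peak, chr10:5199681-5210441, spanned 10.761 kb, 346 kb inside the gene. The first Syne1 promoter window was under a peak in COR and CP, and an inner one in PVT.

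Ank3, which anchors channels at the axon initial segment, and Tenm4, a teneurin that bridges synaptic and axonal contacts, were marked in all regions. Their root mean square deviations over the region and genotype means, 0.20 and 0.24, were the smallest of the 8 members in the region model. Ank3 spans chr10:69533486-70027436, 494 kb, and held 1272 ± 161 CPM in PVT, 1202 ± 285 in COR, 977 ± 257 in CP and 976 ± 61.2 in NAC (SD, n = 4). Tenm4 spans chr7:96171244-96911093, 740 kb, plus strand, and held 1036 ± 56.1, 1156 ± 212, 772 ± 129 and 940 ± 212 CPM. All libraries of Ank3 were apart in PVT against NAC, as for 40.3% of all genes. Those of Tenm4 were apart in PVT against CP (35.3% of genes) and in COR against CP (20.8%). Neither passed in any of the 6 region pairs, with changes of Ank3 from −0.01 to 0.39 and of Tenm4 from −0.28 to 0.58 on the log2 scale, and the adjusted p nearest the threshold was 0.0584 for Tenm4 in COR against CP. Per covered kb both were instead lower in COR and in PVT than in CP and higher in CP than in NAC, where that scaling moved the median of all genes to −0.79, −0.77 and 0.63. Of 4 equal stretches of Ank3, the one with the lowest coordinates held 53.8 of 120.663 kb of peak in PVT and was the most covered in all 4 regions. It holds the widest member peak in PVT, chr10:69567127-69581006, 13.88 kb. The inner Tenm4 promoter window was under a peak in PVT, COR and NAC, and the outer one in none.

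Lman2l, a lectin that carries glycoproteins out of the endoplasmic reticulum, spans chr1:36418900-36445271, 26.4 kb, minus strand, with Fer1l5 inside its extended span. It had 3 small H3K27ac peaks in PVT, with 22.2, 25.9, 10.95 and 16.6 CPM (scaled within that table), 3 in CP, with 8.34, 8.52, 12.9 and 40.3, and 4 in NAC, with 39.7, 30.6, 36.7 and 20.6. With no COR peak it was outside the model of the regions, and the peak nearest its promoter window in COR was 24187 bp away.

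Of the 8 members tested, 3 passed in PVT against COR, where 12.6% of all genes did, 1 in PVT against CP (22.1%), 3 in PVT against NAC (14.3%), 1 in COR against CP (14.7%), 1 in COR against NAC (7.41%) and 1 in CP against NAC (4.92%). A count of 1 in 8 lies near the share of all genes, and a count of 3 in 8 lies above it, with no test of the list itself. DESeq2 called 3, 3, 5, 5, 3 and 2 of the members in these pairs, and 22.3%, 37.2%, 26.1%, 29.9%, 20% and 20.4% of all genes. All libraries of a pair of regions were apart for 4, 3, 6, 4, 2 and 1 of the 8 members, beside 40.5%, 35.3%, 40.3%, 20.8%, 22.4% and 10.7% of all genes. The median change over all genes was 0.03, 0.42, 0.12, 0.33, 0.08 and −0.19 in the same order. Whether the genotype changed a region's difference was tested in the same model, and 0 of 8 members passed by edgeR, where 0.399% of genes did, with 0 members at an unadjusted p under 0.05 (8.37% of genes) and 0 by DESeq2's likelihood ratio test (5.91%).

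**Figure D3:**
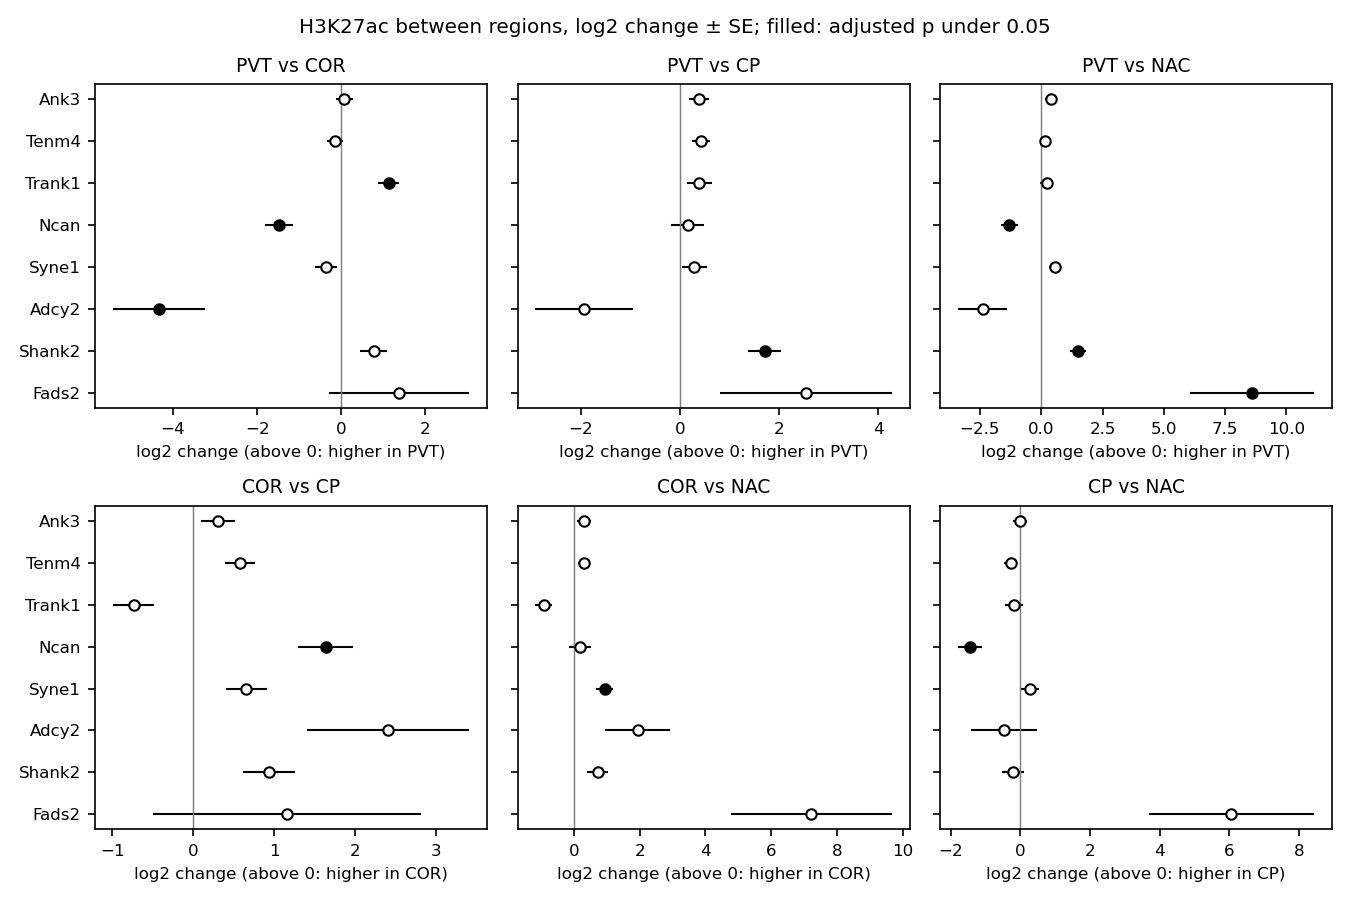
Log2 change of summed H3K27ac (x axis, above 0 for the region named first; bars are SE, n = 4 libraries a region, scales differ between panels) for the 8 members with a peak in every region, filled where the adjusted p was under 0.05. Adcy2 and Ncan lie lower in PVT than in COR, and Shank2 lies higher in PVT than in CP and NAC; per covered kb Shank2 turned to −1.36 and −0.30 and Ncan to −0.76 in COR against CP and 0.46 in CP against NAC. Fads2 in NAC rests on libraries at 0.

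By summed level per kb of gene span, PVT levels fell in the order Trank1 (2.64 CPM per kb), Ank3 (2.58), Ncan (2.43), Shank2 (2.29), Tenm4 and Fads2 (1.40 each), Syne1 (1.35) and Adcy2 (0.0784). The sums include the 5 kb on each side while the span does not, which raises short genes most. Over the extended span Trank1, Ncan and Fads2 would stand lower in this order. Genes whose H3K27ac pattern over the 8 region and genotype means was nearest to a member's, by root mean square difference of centred log2 CPM among 12036 genes, were Prickle2 for Ank3 (0.12), Ssbp3 for Tenm4 (0.09), Dpysl2 for Trank1 (0.14), Ppp1r12b for Ncan (0.21), Osbpl1a for Syne1 (0.14), Net1 for Adcy2 (0.46), Rhbdl1 for Shank2 (0.19) and Kcp for Fads2 (0.38). Net1, the nearest to Adcy2, stood at 4.41 CPM in PVT and 50.9 in COR.

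Partners and relatives of the members were counted in lists of pathway genes. Of 51 such genes 49 were tested between regions, and 6 were higher and 3 lower in PVT than in COR, 9 and 10 against CP, and 7 and 5 against NAC, with medians of 0.22, 0.26 and 0.42 beside 0.03, 0.42 and 0.12 over all genes. The shares of all genes that passed in these pairs were 12.6%, 22.1% and 14.3%, and the lists themselves were not tested. Adcy5, the main striatal adenylyl cyclase, had its lowest level in COR, where Adcy2 was highest, with 1460 ± 228 CPM in CP, 890 ± 105 in NAC, 290 ± 44.8 in PVT and 118 ± 11.2 in COR, and all 6 region pairs passed. Adcy8, a calcium-stimulated cyclase, was higher in PVT (237 ± 4.41 CPM) than in CP (86.8 ± 81.3) and NAC (64.1 ± 38.0). Its highest mean was in COR (327 ± 67.5), as for Adcy2. Shank3, a paralogue of Shank2, held 440 ± 54.4 CPM over 43.1 kb of peak in PVT. It was higher there than in COR (log2 1.74 ± 0.49, adjusted p = 0.0360) and CP (1.62 ± 0.49, 0.0324). Its peaks covered only 13.1 kb in COR and 8.49 kb in CP, and no change per covered kb is given for it. For Shank2 the excess over COR did not pass. Another paralogue, Shank1, had its highest mean in COR (233 ± 69.3 CPM), with 163 ± 33.4 in PVT, 57.2 ± 40.1 in CP and 34.7 ± 15.95 in NAC. Nfasc, the partner of Ank3 at the initial segment, was higher in PVT than in COR (1.07 ± 0.18, 0.00155), CP (1.52 ± 0.18) and NAC (1.55 ± 0.18).

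Of 30 other genes from bipolar association studies, 26 were tested: 2 were higher and 3 lower in PVT than in COR, 4 and 7 against CP, and 4 and 5 against NAC, with medians of −0.34, 0.51 and 0.29. Over all genes 12.6%, 22.1% and 14.3% passed in these pairs, with medians of 0.03, 0.42 and 0.12. The list itself was not tested. Cacna1c, an L-type calcium channel, was higher in PVT than in CP (log2 2.29 ± 0.16 SE, adjusted p = 1.81e-06) and NAC (1.72 ± 0.15, 1.65e-05), and Pou3f2, a neural transcription factor, was lower (−2.05 ± 0.36 and −3.14 ± 0.38). Between genotypes 0 of these 51 and 30 genes passed in any chromatin table.

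Between genotypes 0 members passed in any chromatin table by edgeR. Over gene sums 0% of all genes passed in PVT, COR, CP and NAC, and 0.0121% in ATAC. At an unadjusted p under 0.05 there was 1 member in PVT, Adcy2, 1 in COR, Shank2, and 0 in CP, NAC and ATAC, where 8.12%, 5.66%, 2.26%, 3.26% and 3.87% of all genes reached it. DESeq2 called 1 member, Shank2 in COR, and 0 elsewhere, beside 1.78%, 3.19%, 2.38%, 5.71% and 0.00603% of all genes in the same order. Adcy2 in PVT, at 17.7 and 17.7 CPM in WT and 41.0 and 42.6 in Polg, had a log2 change of 1.25 ± 0.36 (edgeR adjusted p = 0.564). Its WT and Polg libraries did not overlap there, nor did those of Fads2, Lman2l, Syne1 and Tenm4, 5 of 9 members beside 41.4% of all genes. WT and Polg were apart for 2 of 8 members in COR (39% of genes), 3 of 9 in CP (35.8%), 4 of 8 in NAC (40.4%) and 2 of 9 in ATAC (31.9%). The same gene in ATAC held 46.7 and 70.8 CPM in WT and 79.6 and 63.0 in Polg, which overlap. Shank2 in COR, at 714 and 874 CPM in WT and 449 and 452 in Polg, had a log2 change of −0.80 ± 0.31 (edgeR adjusted p = 0.849; DESeq2 0.0288). Some member calls appeared in CP when 1 of its WT libraries was left out, beside calls over all genes and peaks. Such a fit rests on a single WT library of CP. For Adcy2 that library is the one at 0 when WT library 1 is left out. These calls are not read as results about the members.

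In PVT, the region with the smallest share of peaks at 0, the changes of the other members between genotypes ran from −0.80 ± 0.43 for Lman2l to 0.35 ± 0.29 for Fads2 (log2 ± SE), and Ank3, Tenm4, Trank1, Syne1 and Shank2 lay between −0.18 and −0.08, each with an SE of 0.12 to 0.18. In ATAC, Ank3 was at 0.03 ± 0.13, Tenm4 at −0.14 ± 0.13 and Syne1 at 0.11 ± 0.13, and the largest value was −0.44 ± 0.22 for Trank1 (111 and 117 CPM in WT, 86.0 and 81.4 in Polg). CP gave the widest errors, 2.60 ± 2.45 for Adcy2 and 2.34 ± 3.92 for Fads2. Fads2 in NAC and Lman2l in COR had no test.

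At the scale of single peaks, of 382 tested member peaks in PVT 26 had an unadjusted p under 0.05, of 368 in COR 32, of 203 in CP 12, of 272 in NAC 3 and of 165 in ATAC 13, beside 8.09%, 9.29%, 6.69%, 1.6% and 6.13% of all peaks, and 0 passed by edgeR in any table. Over all peaks 0% passed in PVT, COR and CP, 0.00476% in NAC and 0.00114% in ATAC. DESeq2 called 33, 50, 51, 1 and 0 of the member peaks, beside 10.1%, 17.5%, 26.4%, 1.39% and 0.00342% of all peaks. The peak at the far end of Adcy2 named above had counts of 245 and 78 in WT and 499 and 663 in PVT Polg libraries. The Syne1 peak with the smallest p in PVT, chr10:5520880-5522984, had counts of 3676 and 2367 in WT and 712 and 994 in Polg. A Tenm4 ATAC peak, chr7:96704455-96704783, had 65 and 14 against 2 and 0. The lowest adjusted p of a member peak was 0.556 in PVT and 0.704 in ATAC.

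**Figure D4:**
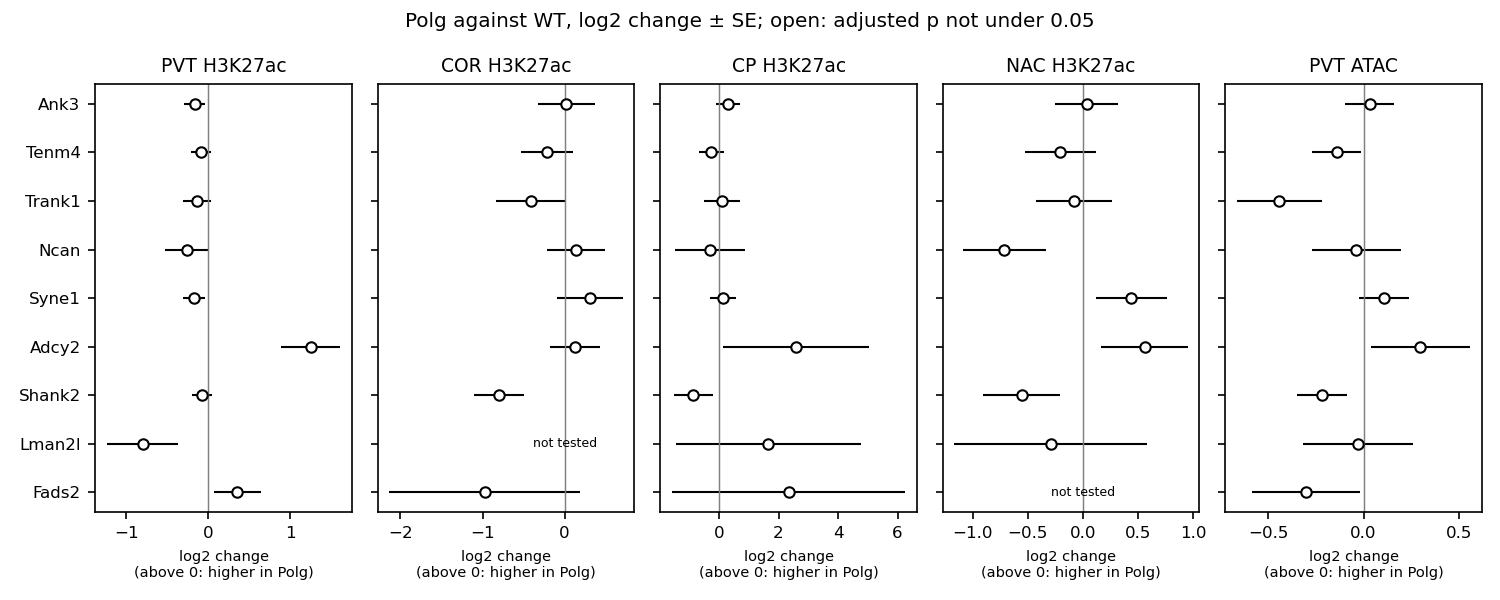
Log2 change of Polg against WT (x axis, above 0 for higher in Polg; bars are SE, 2 libraries against 2, scales differ between panels) for summed H3K27ac in 4 regions and summed ATAC in PVT. All points are open, since no member passed; Adcy2 in PVT is at 1.25 and Shank2 in COR at −0.80.

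In PVT RNA all 9 members were counted in all 20 libraries, and their levels varied widely within groups. Per kb of gene span, median levels in TMM-scaled CPM fell in the order Tenm4 (0.42), Ank3 (0.37), Adcy2 (0.36), Syne1 (0.33), Shank2 (0.16), Lman2l (0.13), Trank1 (0.09), Ncan (0.08) and Fads2 (0.04). The highest library exceeded the lowest by 4.86-fold for Tenm4, the steadiest member, and by 2141-fold for Fads2. The common biological coefficient of variation of the RNA model was 1.365, and TMM factors ran from 0.1253 to 3.866. Use of exons or whole spans, and of strand, in the RNA counting is not given in the sources used here, so an antisense transcript's reads cannot be told apart.

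None of the 9 members passed in any of 8 RNA contrasts by edgeR. Over all 28446 genes 0% passed in Polg against WT, in COX-negative against COX-positive in each state and on average, in depressive against euthymic in each COX class, and in the test of COX class by state, and 1.24% passed in depressive against euthymic averaged over COX classes, a count that dropped to 0 without any 1 of the Polg libraries. Members with an unadjusted p under 0.05 numbered 2 in Polg against WT, 1 and 1 in the COX contrasts of euthymic and depressive mice, 2 in the state contrast of COX-negative samples, 2 in COX class by state and 0 in the rest. Of all genes, 15.3%, 21.2%, 19.9%, 22.6% and 22.3% reached it in these contrasts, and 17.5% in state of COX-positive samples, 22.8% in COX class on average and 22.2% in state on average. DESeq2 called 2, 1, 1, 2 and 2 members in the same 5 contrasts, beside 5.26%, 8.92%, 8.65%, 10.2% and 8.31% of all genes, and 0 members in the last 3, beside 7.82%, 9.19% and 8.71%.

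Adcy2 RNA was lowest in depressive COX-negative samples, at 15.6, 62.3, 29.3 and 46.0 CPM. Depressive COX-positive samples held 1220, 204, 145 and 128 CPM, and euthymic COX-negative samples 226, 95.6, 253 and 650. The depressive COX-negative group overlapped neither of them. The log2 change was −3.47 ± 1.15 against depressive COX-positive (edgeR adjusted p = 0.132; DESeq2 0.0285) and −3.00 ± 1.13 against euthymic COX-negative (0.115; DESeq2 0.0337). Without TMM scaling it still stood apart from depressive COX-positive (6.41 to 92.1 against 102 to 996 CPM) but overlapped euthymic COX-negative (81.4 to 314). Adcy2 was the only member whose groups did not overlap in any of the 5 simple contrasts. Over all genes 2.16% did not overlap in the first of these, 2.48% in the second, and 2.66% in Polg against WT, 3.06% in COX class of euthymic mice and 1.99% in state of COX-positive samples. Beside these groups, 5 neuronal markers summed to 342 to 1046 CPM in depressive COX-negative samples, 379 to 502 in depressive COX-positive and 368 to 2389 in euthymic COX-negative ones. In the same order, 5 astrocyte markers summed to 104 to 219, 84.9 to 614 and 136 to 875 CPM, and 4 microglial markers to 61.6 to 228 (median 138), 49.5 to 85.2 (66.2) and 4.70 to 82.8 (46.7). For 5 cortical projection markers the sums in that order were 7.34 to 291 (median 119), 14.0 to 183 (57.7) and 44.7 to 921 (293) CPM. For 5 thalamic markers they were 72.4 to 88.6 (82.8), 51.0 to 241 (101) and 58.6 to 452 (132) CPM. No marker of these lists was at 0 in every library. Their part was not tested.

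Trank1 RNA ran from 4.80 to 217 CPM in euthymic COX-negative samples (201, 40.0, 4.80 and 217) and was 2.97, 3.32, 1.82 and 6.64 in depressive COX-negative ones. These overlap by 1 library. The change was −4.97 ± 1.55 (edgeR adjusted p = 0.0863; DESeq2 0.000297), and the difference of COX effects between states was −6.80 ± 2.03 (0.0677; DESeq2 0.000962). Lman2l held 24.8, 141, 1617 and 3.85 CPM in WT and 1.77, 2.39, 15.3 and 3.11 in euthymic COX-positive Polg samples, a change of −6.31 ± 1.62 (edgeR adjusted p = 0.187; DESeq2 0.000131) between groups that overlap. Ncan held 14.2, 195, 3.05 and 3.68 CPM in WT against 0.662, 4.95, 2.21 and 1.40, a change of −4.55 ± 1.93 (0.275; DESeq2 0.0278).

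The other 5 members gave smaller changes relative to their errors. Ank3, Tenm4 and Shank2 stayed within −1.22 and 1.23 on the log2 scale in all 8 contrasts, with SEs of 0.63 to 1.59. Median Tenm4 was 217 CPM in WT. Among Polg samples it was 292 and 207 CPM in the COX-positive class, euthymic and then depressive, and 497 and 367 CPM in the COX-negative class. Syne1 ranged from −1.62 to 2.34 and Fads2 from −0.65 to 2.72. The plot of RNA by library shows the spread within each group beside these medians.

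**Figure D5:**
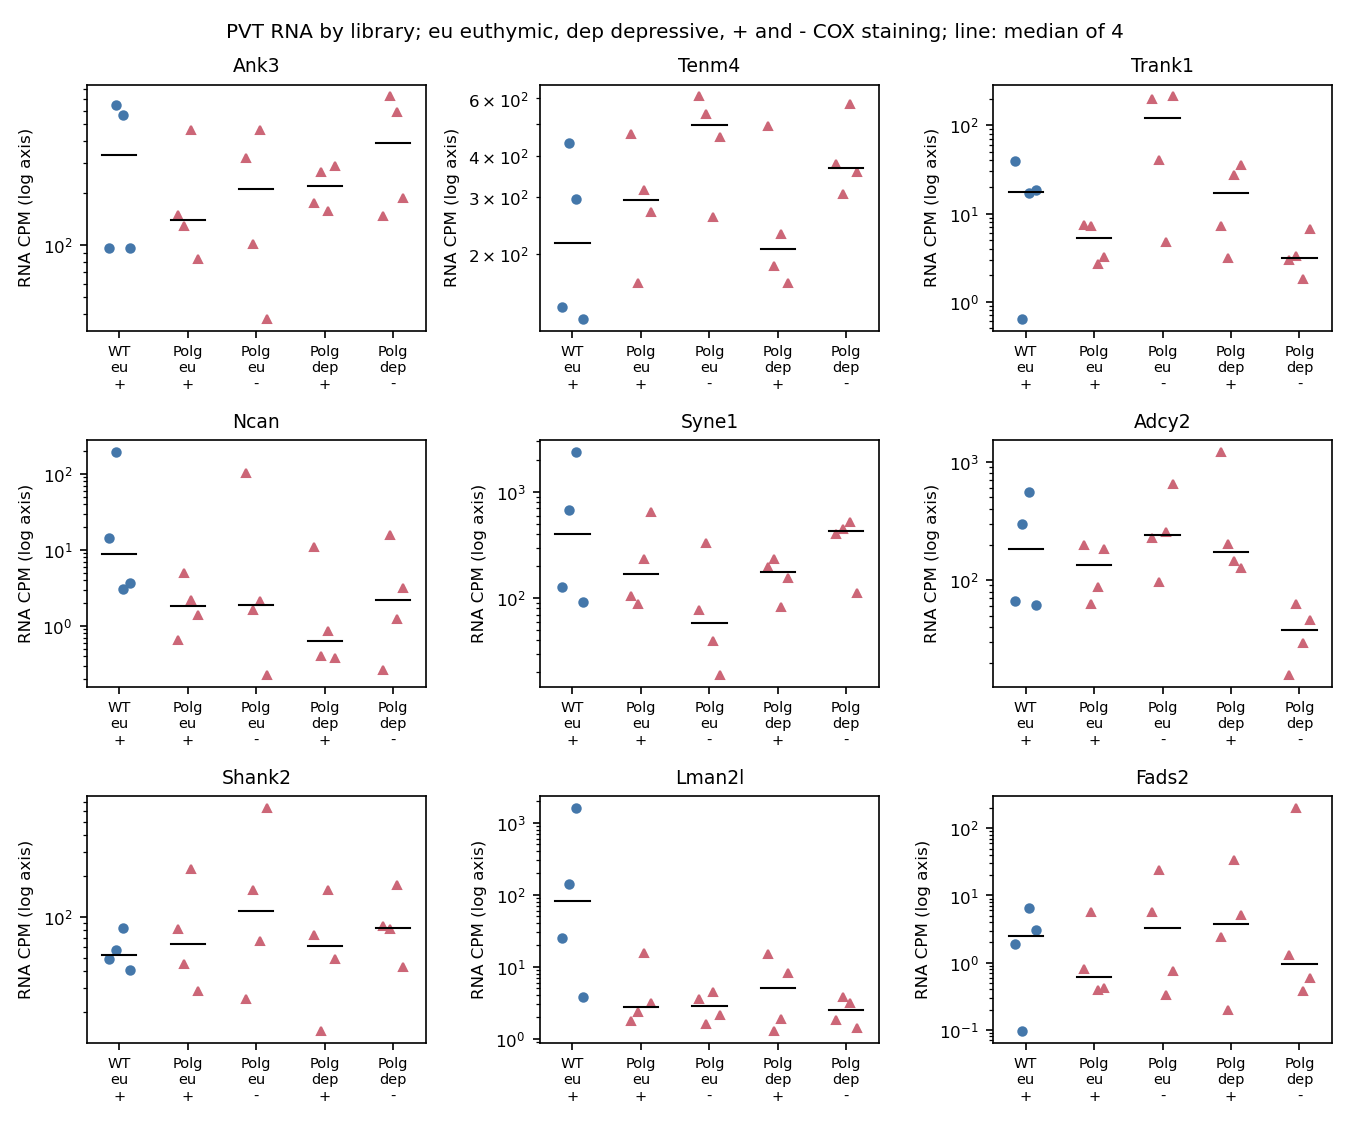
RNA of each member in TMM-scaled CPM (y axis, log scale, a range of its own per gene) in the 5 PVT groups (x axis), with WT libraries as circles, Polg libraries as triangles and the median of 4 as a line. Adcy2 in depressive COX-negative samples lies at 15.6 to 62.3 CPM, below both depressive COX-positive and euthymic COX-negative samples. Fads2 runs from 0.0946 to 203 CPM over all libraries.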

How the data were processed

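Every value starts from raw read counts as deposited by the authors, whole numbers for genes in the RNA table and for peaks in the H3K27ac and ATAC tables, each of which has 1 merged peak set. The build mm10 and the tools featureCounts, HOMER, STAR, DESeq2 and Subread are named, without versions or roles, per the submitters' processing notes. Groups were taken from the labels. In the RNA table the headers give each column's group alone. The members, lists and tests were chosen with earlier results of these data known. Gene spans came from a RefSeq gene table, peaks were assigned to each span extended by 5 kb, and their counts were summed. All tests were 2-sided edgeR 4.0.16 quasi-likelihood tests (R 4.3.3, limma 3.58.1) with TMM scaling, edgeR's filter on low counts and Benjamini-Hochberg adjustment at 0.05 over all genes or peaks of a table. The 16 H3K27ac libraries entered 1 model, the 20 RNA libraries another, and each chromatin table a genotype model of 2 against 2. The scripts were tested on simulated data with less spread between RNA libraries than here, which checks the code and not the tests in these data. Named peaks were a member's highest, those at its start or ends, and the one of smallest p for genotype. Alternatives were DESeq2 1.42.0, its size factors, no filter, no span extension, counts per covered kb, peaks shared by all regions, a replicate block, only the groups of a contrast, and each library left out. Shares called by DESeq2 are of all genes or peaks tested by edgeR. Levels of 3 counts cover counting error only.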

Additional observations from a re-analysis of the deposited data

Results flagged for a closer look

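In 3 of 45 groups of 4 RNA libraries, member by member, the highest library stood apart from the other 3 by a gap above the critical share of the group's whole range in Dixon's test on log2(CPM + 1), which chance passes in about 1 of 20 groups. Ncan in depressive COX-positive Polg samples had 1 library at 10.8 CPM beside others at 0.379 to 0.866. Fads2 in euthymic COX-positive Polg samples had 1 library at 5.72 CPM beside others at 0.395 to 0.810. Fads2 in depressive COX-negative Polg samples had 1 library at 203 CPM beside others at 0.375 to 1.32. Neither gene passed in any RNA contrast by edgeR. DESeq2 called Ncan in Polg against WT (adjusted p = 0.0278), which leaves out the depressive COX-positive libraries flagged for Ncan. That contrast does use the euthymic COX-positive Polg libraries flagged for Fads2.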

How the results depend on the processing

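Of 163 member values, 10 were called; over 2175 alternatives 1909 kept direction and side of the threshold, 42 became called, 55 lost a call, 13 turned direction with a call involved and 156 turned without one. The cause of these shifts was not tested, except that a covered-length divisor changes the quantity, shared peaks are fewer, and a lone library is assumed to vary like the other groups. WT library 2 had the fewest counts of its region in CP (12048787) and in NAC (6415127).

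Between regions, genes called went from 1514 (PVT against COR), 2662 (PVT against CP), 1721 (PVT against NAC), 1766 (COR against CP), 892 (COR against NAC) and 592 (CP against NAC) to 2681, 4479, 3141, 3601, 2403 and 2461 with DESeq2, and to 335, 671, 362, 427, 149 and 193 over shared peaks. Per covered kb they went to 1, 1153, 2, 1126 and 2 in the first 5 pairs, and the share of calls higher in the region named first went from 58.1% to 10.7% in PVT against CP, from 62.9% to 10.3% in COR against CP and from 24.2% to 82.4% in CP against NAC. Members called, 3, 1, 3, 1, 1 and 1, went to 0, 4, 0, 4, 0 and 2 per covered kb. They went to 3, 5, 5, 3 and 2 with DESeq2 in the 5 pairs after PVT against COR, in that order, to 1, 1, 2 and 0 with no span extension in PVT against COR, PVT against NAC, COR against NAC and CP against NAC, and over shared peaks to 1 in PVT against COR and NAC and 0 in the pairs without PVT. Per covered kb the direction turned to −1.36 for Shank2, −0.95 for Ank3, −1.25 for Tenm4 and −0.93 for Trank1 in PVT against CP, to −0.30 for Shank2 in PVT against NAC, to −1.28 for Ank3, −0.76 for Ncan, −1.33 for Shank2 and −1.09 for Tenm4 in COR against CP, and to 1.01 for Ank3, 0.46 for Ncan and 1.02 for Tenm4 in CP against NAC. With 1 library left out, Adcy2 in PVT against CP ran from −2.39 (without WT library 2 of CP) to 5.13 (without WT library 1 of CP).

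Over genes, differences between replicates 1 and 2 correlated between tables or genotypes at −0.033 to 0.117. The highest values were among WT libraries of COR, CP and NAC (0.082 to 0.117). Whether same-numbered chromatin libraries share an animal or a batch is not stated in the labels, and such correlations cannot decide it. With the replicate block, genes called were 988 in COR against CP and 112 in CP against NAC, and members called 3 in COR against CP, 2 in COR against NAC and 0 in CP against NAC. It called 3 gene sums between genotypes in CP, 1 in NAC and 1 in ATAC, 10 by region and genotype, and 10 peaks in COR, 1 in CP, 2 in NAC and 2 in ATAC. The block ended the calls of Fads2 in PVT against NAC (adjusted p = 0.166) and of Ncan in CP against NAC (0.0567). No paired analysis was possible because the columns carry no replicate numbers in the RNA table.

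Between genotypes DESeq2 called 279 gene sums in PVT, 495 in COR (1 member), 316 in CP, 836 in NAC and 1 in ATAC, 711 by region and genotype, and 12261 peaks in PVT (33 of members), 21623 in COR (50), 20977 in CP (51), 1457 in NAC (1) and 3 in ATAC. Its size factors in edgeR gave 11 peaks in NAC. With no filter there were 4 gene sums in CP, 1 peak in CP and 29 in NAC, and with no extension 31 genes by region and genotype and 1 ATAC sum. In RNA, DESeq2 called 1495 genes in Polg against WT (2 members), 2537 and 2460 by COX class in euthymic and depressive mice (1 member each), 2615 on average, 2909 and 2224 by state in COX-negative (2 members) and COX-positive samples, 2478 on average, and 2364 for COX class by state (2 members). With no filter edgeR called 2 genes in Polg against WT, 458 and 586 by COX class in euthymic and depressive mice, 1628 on average, 1170 by state in COX-negative samples, 1887 on average, and 1582 for COX class by state. DESeq2's size factors in edgeR gave 377 for COX on average, 780 for state on average and 378 for COX class by state, and only the groups of the contrast gave 0 for state on average.

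With 1 library left out, genes called ran from 835 to 1221 in PVT against COR (members 0 to 3), 1703 to 5550 in PVT against CP (1 to 3), 1025 to 1766 in PVT against NAC (1 to 2), 1067 to 4839 in COR against CP (1 to 4), 479 to 1131 in COR against NAC (0 to 1) and 312 to 3717 in CP against NAC (0 to 2). Gene sums between genotypes ran from 0 to 9 in PVT, 0 to 1021 in CP (members 0 to 1), 0 to 1453 in NAC and 1 to 19 in ATAC, by region and genotype from 14 to 1773 (members 0 to 1), peaks from 0 to 5436 in CP (member peaks 0 to 11), 0 to 201 in NAC and 0 to 4 in ATAC, and RNA genes by state on average were 0 without any 1 of the Polg libraries. The highest counts came without WT library 1 of CP in the comparisons with CP, without WT library 1 of NAC in its gene sums, and without Polg library 2 in NAC peaks and ATAC sums.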

Other observations

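The promoter windows of Lman2l and of the inner Tenm4 start, not described above in full, also bore peaks. The Tenm4 window lay under an ATAC peak of 10.5 ± 3.06 CPM and an H3K27ac peak of 34.9 ± 3.36 CPM in PVT and 33.9 ± 4.24 CPM in COR (SD, n = 4). The Lman2l window lay under an ATAC peak of 21.3 ± 2.82 CPM and an H3K27ac peak of only 3.74 ± 2.40 CPM in PVT. Of the ATAC peaks of Tenm4, 63.6% of 44 overlapped a PVT H3K27ac peak, of Ank3 59.4% of 32 and of Syne1 51.6% of 31.

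Genes near the members on the list of partners were not all alike between regions. Dlgap1, a postsynaptic partner of Shank proteins, was higher in COR than in CP (log2 1.02 ± 0.17 SE, edgeR adjusted p = 0.00214), and Dlgap4 was higher in PVT than in COR (1.11 ± 0.18, 0.00147). Adgrl3, a latrophilin that binds teneurins, was lower in COR than in CP (−1.32 ± 0.25, 0.00474) and in PVT than in CP (−0.98 ± 0.25, 0.0141).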
